A study of Mus musculus with 8 samples.

Results

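The interferon-stimulated genes described here are *Isg15*, *Usp18*, *Herc6*, *Stat2*, *Ifit1*, *Ifit3*, *Oasl2*, *Rsad2* and *Bst2*. They were chosen by name, as *Isg15* with genes of its pathway and of the antiviral response, with earlier results of these data known. All 9 were found among the 41709 genes listed. Their mRNA was measured in 8 muscles, the tibialis anterior (TA) of both legs of 4 male C57BL/6J mice that were 3 months old, collected 7 days after siRNAs were electroporated. Each mouse had a SMARTpool, a mixture of siRNAs to the same target, against *Uba1* in one leg and non-targeting control siRNAs (NT) in the other, so that both groups went through the same electroporation and no untreated muscle is among them. *Uba1* encodes the major enzyme that activates ubiquitin for its attachment to proteins, and the comparison asks how the mRNAs of the muscle differ when it is reduced. The same replicate number, 1 to 4, marks both legs of a mouse, called a pair here. The sample titles carry the letter L for all *Uba1* muscles and R for all NT muscles, so the leg and the siRNAs cannot be told apart. The treatment tags name UBA1 for replicate 1 and UBA2, UBA3 and UBA4 for the others, whereas the titles and descriptions name UBA1 for all 4. Levels are given as TPM, a transcript abundance that accounts for gene length and can be compared between genes.

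Type I interferons bind a receptor made of IFNAR1 and IFNAR2, whose kinases JAK1 and TYK2 phosphorylate STAT2. STAT2 joins IRF9 in a complex that binds the interferon-stimulated response element (ISRE) in the promoters of its target genes. One such target, ISG15, is a ubiquitin-like protein with an activating enzyme of its own, UBA7, followed by the conjugating enzyme UBE2L6 and a ligase, which is HERC6 in mice. USP18 takes ISG15 off proteins and also restrains signalling at the receptor.

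The ISRE is what many promoters of such genes have in common, and the stretches that hold its letters are printed to show how close to the start sites of these genes they lie. The core of the ISRE was searched for as GAAA, any 2 bases and GAAA again, on both strands of the 250 bases before each start site. It was found for 7 of the 9 genes (77.8%), for 28 of 106 other interferon-stimulated genes (26.4%) and for 723 of 21751 protein-coding genes (3.32%). In *Isg15*, *Usp18*, *Ifit1*, *Ifit3* and *Bst2* there was more than 1 match. The stretches below were read from GRCm39, 5′ to 3′ in the direction of the gene, with each match in capitals. A match on the other strand reads as TTTC at both ends, and overlapping matches form 1 run of capitals. The start site is that of the canonical transcript, which in *Usp18* lies a few bases after the first base of the gene.
*Isg15*, chr4:156285304-156285376, minus strand: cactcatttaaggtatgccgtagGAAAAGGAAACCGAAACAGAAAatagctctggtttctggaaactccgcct
*Usp18*, chr6:121222771-121222850, plus strand: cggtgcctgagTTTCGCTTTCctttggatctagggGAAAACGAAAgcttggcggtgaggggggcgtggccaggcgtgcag
*Ifit1*, chr19:34618169-34618248, plus strand: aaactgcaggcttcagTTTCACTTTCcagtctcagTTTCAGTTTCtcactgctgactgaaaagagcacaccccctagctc
*Ifit3*, chr19:34560772-34560851, plus strand: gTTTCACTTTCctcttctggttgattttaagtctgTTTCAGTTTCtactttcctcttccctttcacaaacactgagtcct
*Stat2*, chr10:128106110-128106189, plus strand: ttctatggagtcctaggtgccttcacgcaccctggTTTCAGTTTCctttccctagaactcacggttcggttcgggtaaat
*Rsad2*, chr12:26506527-26506606, minus strand: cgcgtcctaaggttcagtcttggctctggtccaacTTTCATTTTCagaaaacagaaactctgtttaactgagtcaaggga
*Bst2*, chr8:71990196-71990275, minus strand: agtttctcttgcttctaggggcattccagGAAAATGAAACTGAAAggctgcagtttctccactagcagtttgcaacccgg
The match nearest to the start site lay 29 bases before it in *Isg15* and 198 bases before it in *Stat2*, the extremes among the 7 genes. In *Oasl2* and *Herc6* these letters were not in the 250 bases searched. The gamma-activated sequence, searched as TTCNNNGAA, where N is any base, was found for 1 of the 9 genes, *Bst2*, and for 7.7% of protein-coding genes.

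*Uba1* itself was at 60.6, 59.0, 63.6 and 59.1 TPM in NT replicates 1 to 4 and at 18.1, 6.77, 15.8 and 23.1 TPM in the *Uba1* muscles of the same numbers. It was lower in 4 of 4 pairs, with a log2FC of -1.98 (standard error 0.29) and a limma adjusted p of 0.0527, or 0.0278 with the pairing of legs in the fit. The muscle with the least *Uba1* was replicate 2, where the 9 genes differed from the contralateral muscle by -0.46 to 0.52 on the log2(TPM + 1) scale. The genes tested were the 11530 that reached 1 TPM in 4 muscles or more. Of them, 81.8% had a log2FC above 0, with a median of 0.11. When the muscles were scaled by median ratios the share was 50.7% and the median 0.0016.

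The highest levels of the 9 genes lay in 1 muscle, and the siRNA groups overlapped in all of them. All 9 had their highest level in *Uba1* replicate 3, and 8 of 9 had their highest NT level in NT replicate 3, the other leg of the same mouse. Of all genes tested, 34.3% were highest in *Uba1* replicate 3 and 36.7% had their highest NT level in NT replicate 3. With median-ratio scaling the 9 genes were still all highest in *Uba1* replicate 3, against 13.1% of all genes. The level in *Uba1* replicate 3 was 2.64 to 6.77 times the median of the other 3 *Uba1* muscles (median over genes 4.49), and 1.22 to 4.29 times that in the contralateral NT muscle (median 2.66). In every one of the 9 genes the range of the NT muscles overlapped that of the *Uba1* muscles, whereas 10.6% of all genes tested were higher in each *Uba1* muscle than in any NT muscle.

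**Figure D1:**
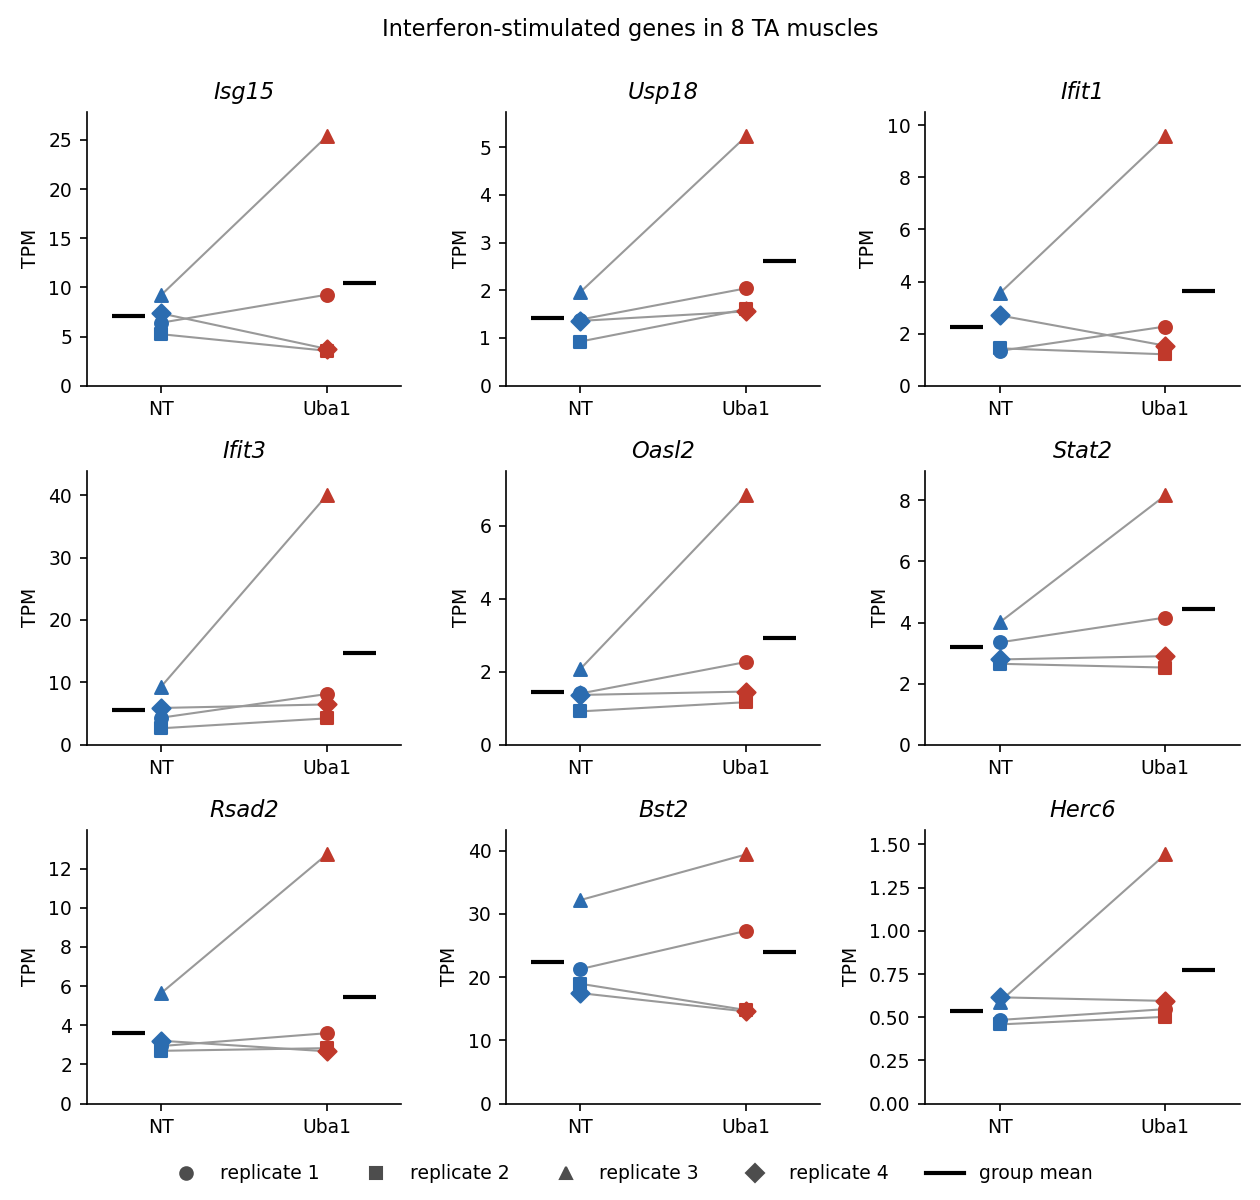
TPM of each of the 9 genes (linear axes from 0) in the 4 muscles with NT siRNAs (blue) and the 4 with *Uba1* siRNAs (red), where lines join the legs of a mouse, the symbol gives the replicate and black bars are group means. The red triangle, *Uba1* replicate 3, is the highest point in all 9 panels, and the other 3 *Uba1* muscles lie among or near the NT muscles.

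*Isg15* (chromosome 4, 156283883 to 156285303 of GRCm39, minus strand) encodes the modifier itself. It was at 6.40, 5.24, 9.22 and 7.35 TPM in NT replicates 1 to 4 and at 9.25, 3.55, 25.4 and 3.74 TPM in *Uba1* replicates 1 to 4. The 2 lowest and the 2 highest of the 8 levels were all in *Uba1* muscles. The difference between the legs, *Uba1* minus NT on the log2(TPM + 1) scale, was 0.47, -0.46, 1.37 and -0.82 in pairs 1 to 4, so that the direction was split 2 against 2. The log2FC was 0.14, with a standard error of 0.50 and a limma adjusted p of 0.886.

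*Usp18* (chromosome 6, 121222848 to 121247877, plus strand), the ISG15 protease, was at 1.39, 0.926, 1.96 and 1.36 TPM with NT siRNAs and at 2.04, 1.60, 5.23 and 1.56 TPM with *Uba1* siRNAs. It was higher in the *Uba1* leg of each mouse, by 0.35, 0.44, 1.07 and 0.12 on the log2 scale. Its log2FC was 0.49 (standard error 0.27), and its adjusted p of 0.347 from limma was the lowest among these genes. With the legs paired as a replicate block, the standard error was 0.15, the unadjusted P 0.0123 and the adjusted p 0.128.

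*Herc6* (chromosome 6, 57557932 to 57642597, plus strand), the ligase for ISG15, had the lowest level of the 9. It was at 0.484, 0.459, 0.590 and 0.615 TPM with NT siRNAs and at 0.547, 0.502, 1.44 and 0.595 TPM with *Uba1* siRNAs. Only *Uba1* replicate 3 exceeded 1 TPM, so *Herc6* was below the filter on low values and was not among the genes tested. Its log2FC, given as a description, was 0.18, and the exact permutation test of the 8 values (two-sided) gave p = 0.429.

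*Stat2* (chromosome 10, 128106352 to 128128735, plus strand), the signal transducer, was at 3.35, 2.65, 4.00 and 2.79 TPM with NT siRNAs and at 4.16, 2.53, 8.16 and 2.90 TPM with *Uba1* siRNAs. Its 3 muscles with *Uba1* siRNAs other than replicate 3 averaged 3.20 ± 0.858 TPM (SD, n = 3), close to the 3.20 ± 0.616 TPM (SD, n = 4) of the NT muscles. By limma the log2FC was 0.28 ± 0.27 (standard error), with an adjusted p of 0.577.

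*Ifit1* and *Ifit3* lie on chromosome 19 (34618271 to 34632174 and 34560899 to 34566443, both plus strand) and encode proteins of the tetratricopeptide repeat family that act against viral RNA. *Ifit1* was at 1.34, 1.43, 3.55 and 2.70 TPM with NT siRNAs and at 2.27, 1.20, 9.57 and 1.54 TPM with *Uba1* siRNAs. *Ifit3* was at 4.32, 2.63, 9.31 and 5.88 TPM with NT siRNAs and at 8.12, 4.21, 39.9 and 6.45 TPM with *Uba1* siRNAs. The neighbours differed in direction between mice. *Ifit3* was higher in the *Uba1* leg of all 4 mice, by 0.78, 0.52, 1.99 and 0.11 on the log2 scale, and *Ifit1* in 2 of 4, with differences of 0.49, -0.14, 1.22 and -0.54. Their log2FC were 0.85 for *Ifit3* (standard error 0.59, adjusted p = 0.436 from limma) and 0.25 for *Ifit1* (standard error 0.46, adjusted p = 0.767). The 0.85 of *Ifit3* was the largest among these genes, and it was 0.22 without *Uba1* replicate 3. With the legs paired, *Ifit3* had an unadjusted P of 0.0146 and an adjusted p of 0.133.

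*Oasl2* (chromosome 5, 115034997 to 115050295, plus strand) encodes an oligoadenylate synthetase-like protein that carries ubiquitin-like domains. It was at 1.40, 0.912, 2.08 and 1.36 TPM with NT siRNAs and at 2.26, 1.16, 6.83 and 1.46 TPM with *Uba1* siRNAs, higher in the *Uba1* leg of all 4 mice. Limma gave a log2FC of 0.51 (standard error 0.36) and an adjusted p of 0.449. With the legs paired, the unadjusted P was 0.0386 and the adjusted p 0.178. Under the pairing with median-ratio scaling, its log2FC was 0.42 (standard error 0.19), and *Oasl2* did not pass an unadjusted P of 0.05.

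*Rsad2* (chromosome 12, 26492745 to 26506451, minus strand) encodes viperin, an enzyme that makes a chain-terminating nucleotide. It was at 2.94, 2.70, 5.64 and 3.21 TPM with NT siRNAs and at 3.60, 2.83, 12.7 and 2.67 TPM with *Uba1* siRNAs. The 3 *Uba1* muscles other than replicate 3 spanned less than 1 TPM, and the second highest level of the 8 was in NT replicate 3. The log2FC was 0.28, with a standard error of 0.40 and a limma adjusted p of 0.703.

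*Bst2* (chromosome 8, 71986895 to 71990114, minus strand) encodes tetherin, which holds budding virus at the cell surface. It was the most abundant of the 9 in NT muscles, at 21.3, 19.0, 32.2 and 17.5 TPM, and it was at 27.3, 14.8, 39.4 and 14.6 TPM with *Uba1* siRNAs. Its difference between the legs of pair 3 was 0.28 on the log2 scale, the smallest of the 9 in that pair, and NT replicate 3 was at 1.70 times the median of the other NT muscles. By limma the log2FC was 0.012 ± 0.31 (standard error), with an adjusted p of 0.986, and it turned to -0.11 with median-ratio scaling.

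In order of mean level with NT siRNAs, *Bst2* (22.5 ± 6.67 TPM) came before *Isg15* (7.05 ± 1.68), *Ifit3* (5.54 ± 2.84), *Rsad2* (3.62 ± 1.36), *Stat2* (3.20 ± 0.616), *Ifit1* (2.25 ± 1.06), *Oasl2* (1.44 ± 0.48), *Usp18* (1.41 ± 0.426) and *Herc6* (0.537 ± 0.0771; all SD, n = 4). The ranges of neighbours in this order overlapped except for *Bst2* against *Isg15* and *Usp18* against *Herc6*. With *Uba1* siRNAs the order was the same but for *Ifit3* (14.7 ± 16.9 TPM), which stood above *Isg15* (10.5 ± 10.3 TPM). There the SD of both genes was about as large as the mean, and the ranges of all neighbours overlapped except for *Usp18* against *Herc6*.

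None of the 8 genes tested passed an adjusted p of 0.05 in limma, where 0.0260% of all genes did (3 genes). At an unadjusted P under 0.05, 0 of 8 were higher, against 16.0% of all genes, and 0 were lower, against 1.98%. The lowest unadjusted P was 0.103. With the pairing in the fit, *Usp18*, *Ifit3* and *Oasl2* passed an unadjusted P of 0.05 upward, 3 of 8 genes beside 22.4% of all genes, 0 passed downward, beside 2.80%, and none passed the adjusted p, which 0.494% of all genes did. The pairing gave standard errors of 0.32, 0.26, 0.15, 0.18 and 0.13 for *Isg15*, *Ifit1*, *Stat2*, *Rsad2* and *Bst2*. The exact permutation tests of the 9 genes (two-sided, without the pairing) gave p between 0.143 and 0.971. There 0.0286 is the smallest that 4 muscles against 4 allow. All 9 log2FC were above 0, and the median of the 8 tested was 0.28 beside 0.11 for all genes. With median-ratio scaling or quantile normalization 7 of the 8 were above 0, all but *Bst2*.

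Without *Uba1* replicate 3, 5 of the 8 log2FC were below 0, namely *Isg15* (-0.39), *Bst2* (-0.26), *Ifit1* (-0.25), *Rsad2* (-0.16) and *Stat2* (-0.0087). *Ifit3* (0.22), *Usp18* (0.20) and *Oasl2* (0.11) were above it, as were 73.4% of all genes. The median of the 8 was then -0.086, beside 0.077 for all genes. Without both legs of pair 3 and with the other legs paired, *Usp18* (log2FC 0.30) and *Ifit3* (log2FC 0.47) still passed an unadjusted P of 0.05 in limma, at 0.0339 and 0.0144, with adjusted p of 0.379 and 0.355, as 10.2% of all genes did upward. *Oasl2* did not pass there, at an unadjusted limma P of 0.0997. This last setting was chosen after seeing the data.

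**Figure D2:**
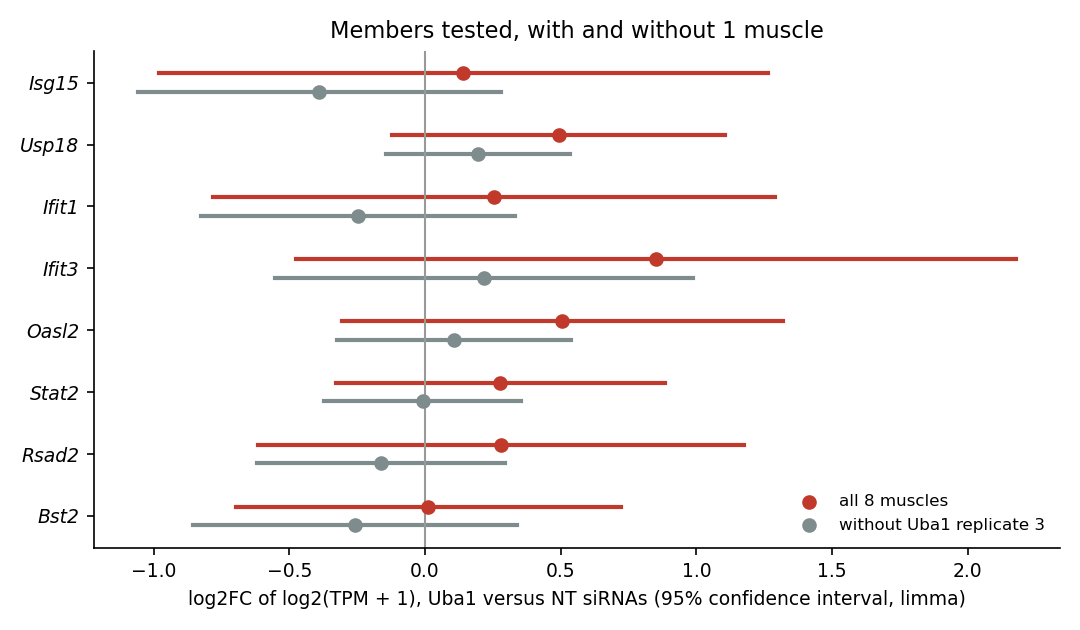
Log2FC on the log2(TPM + 1) scale, *Uba1* versus NT siRNAs, of the 8 genes tested, with 95% confidence intervals from limma, for all 8 muscles (red) and without *Uba1* replicate 3 (grey). All these intervals, from fits without the pairing of legs, include 0, and the grey points of 5 genes lie below 0. With the legs paired, the 95% intervals of all 8 muscles excluded 0 for *Usp18* (0.14 to 0.84), *Ifit3* (0.22 to 1.48) and *Oasl2* (0.035 to 0.98). They included 0 for the other genes.

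Pair by pair, the 9 genes were higher in the *Uba1* leg in 9, 5, 9 and 4 cases in pairs 1 to 4, beside 83.3%, 56.1%, 81.8% and 61.8% of all genes tested. Their median differences were 0.35, 0.043, 1.07 and -0.019 on the log2 scale. Transcripts of mitochondrial genes took 45.7%, 43.9%, 42.1% and 43.2% of the TPM in NT replicates 1 to 4 and 40.2%, 50.3%, 39.9% and 46.5% in *Uba1* replicates 1 to 4, so the share was lower in the *Uba1* leg of pairs 1 and 3 and higher in that of pairs 2 and 4. With TPM rescaled to leave these genes out, 9, 6, 9 and 5 of the 9 genes were higher in pairs 1 to 4, beside 64.5%, 78.9%, 74.0% and 78.7% of all genes, and all 9 were still highest in *Uba1* replicate 3. In pair 3, 6 of 9 differed by more than 1 on the log2 scale, as did 0.286% of all genes (33 genes), and in the other pairs none of the 9 did, where 0.633%, 0.399% and 0.416% of all genes did. With median-ratio scaling the counts of higher genes were 8, 5, 9 and 3 of 9, beside 49.7%, 49.7%, 50.9% and 49.4% of all genes, and 4 of 9 differed by more than 1 in pair 3, beside 0.199%. *Usp18*, *Ifit3* and *Oasl2* were higher in the *Uba1* leg of all 4 mice under both scalings, 3 of 9 genes beside 32.2% of all genes without the scaling, and 0 of 9 were lower in all 4, beside 2.98%.

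**Figure D3:**
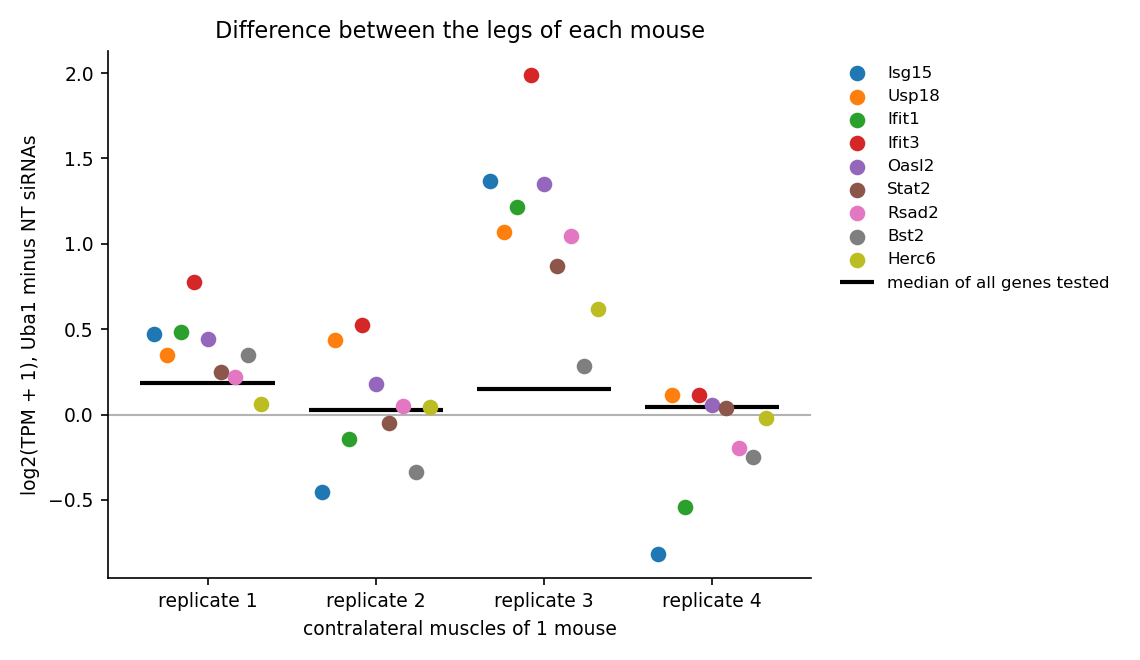
Difference in log2(TPM + 1) between the legs of each mouse, *Uba1* minus NT siRNAs, for each of the 9 genes (coloured points), with the median of all 11530 genes tested as a black bar. Points lie from 0.28 to 1.99 in replicate 3 and on both sides of 0 in replicates 2 and 4, where the medians of the 9 genes were 0.043 and -0.019.

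The 9 genes varied together across muscles. Over the 8 muscles, Pearson's r of log2(TPM + 1) in the 36 pairs of genes was between 0.654 and 0.985 with a median of 0.93. Without *Uba1* replicate 3 it was between 0.10 and 0.93 with a median of 0.73 over 7 muscles. These muscles share mice and the common scale of each library, and the values are given as a description. Among all other genes tested, the 10 with the highest r with the mean z-score of the 8 tested genes were *Cmpk2* (0.990), *Parp14* (0.990), *Gm20559* (0.985), *Ddx58* (0.985), *Phf11d* (0.981), *Spin1* (0.979), *Oas1a* (0.978), *Xaf1* (0.973), *Myo9b* (0.972) and *Ifi203* (0.971), over 8 muscles. All except *Gm20559*, *Spin1* and *Myo9b* stand in the wider list of interferon-stimulated genes. *Cmpk2*, the neighbour of *Rsad2* that encodes a nucleotide kinase, was at 1.13, 0.838, 1.91 and 1.11 TPM with NT siRNAs and at 1.79, 0.983, 5.48 and 0.727 TPM with *Uba1* siRNAs.

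The interferons were near or at the limit of these libraries. Of 21 interferon genes, 17 were listed at 0 in all 8 muscles and none passed the filter on low values. *Ifnb1*, the interferon beta gene, was listed at 0.0919 TPM in NT replicate 4 and at 0 elsewhere. *Ifng*, the interferon gamma gene, was listed at 0.107 TPM in *Uba1* replicate 3, at 0.0523 TPM in *Uba1* replicate 1 and at 0 elsewhere. *Ifnab* was listed at 0.0604 TPM in *Uba1* replicate 2 and at 0 elsewhere. No interferon was thus listed above 0 in more than 2 muscles. *Ifnz* was listed at 0.0457 and 0.0473 TPM in NT and *Uba1* replicates 3, and at 0 elsewhere. Such values may stand for single reads, and the number of reads is not recoverable from TPM.

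Of the receptor and signalling genes, 9 of 10 were tested, and *Tyk2* and *Pias1* passed an unadjusted P of 0.05 upward and *Socs3* downward, 2 and 1 of 9 beside 16.0% and 1.98% of all genes. *Tyk2*, a receptor kinase, was at 4.18, 3.85, 4.57 and 3.63 TPM with NT siRNAs and at 5.66, 4.31, 5.80 and 4.97 TPM with *Uba1* siRNAs (log2FC 0.29, adjusted p = 0.204 from limma). *Pias1*, an inhibitor of STAT proteins, had a log2FC of 0.18, with a limma adjusted p of 0.277. It did not pass the unadjusted P with the legs paired (limma P of 0.0562) or without *Uba1* replicate 3 (limma P of 0.0686). Its log2FC was 0.18 in both of these fits too. *Socs3*, a cytokine-induced inhibitor of JAK kinases, was at 18.5, 37.9, 22.0 and 34.1 TPM with NT siRNAs and at 10.9, 11.4, 10.1 and 20.1 TPM with *Uba1* siRNAs. Its ranges overlapped by 1 muscle, and its log2FC of -1.03 had an adjusted p of 0.150 from limma, or 0.0478 with the legs paired. *Ifnar1*, *Ifnar2*, *Jak1* and *Irf9* did not pass the unadjusted P.

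Of the nucleic acid sensors and their adaptors, 12 of 18 were tested. Only *Mavs*, the adaptor of RNA sensors on mitochondria, passed an unadjusted P of 0.05 (log2FC 0.15, adjusted p = 0.217 from limma), or 1 of 12 beside 16.0% of all genes upward. With the legs paired 5 of 12 did, all higher, beside 22.4% of all genes. *Ddx58*, which encodes the RNA sensor RIG-I, was at 2.02, 1.80, 2.60 and 1.76 TPM with NT siRNAs and at 2.58, 1.73, 4.29 and 1.84 TPM with *Uba1* siRNAs. *Irf7*, a factor that raises interferon genes and is itself induced, was at 6.74 and 10.6 TPM in NT and *Uba1* replicates 3 and between 2.39 and 5.69 TPM elsewhere. Both genes were thus highest in the same muscle as the 9 genes.

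Of the 6 other genes of ISG15 conjugation, all were tested and 0 passed an unadjusted P of 0.05. The 2 most abundant, *Arih1* (log2FC 0.13) and *Usp16* (log2FC -0.0086), had limma adjusted p of 0.448 and 0.950. *Uba7* and *Trim25* passed the unadjusted P with the legs paired (limma P of 0.0125 and 0.0090, adjusted p of 0.128 and 0.116), 2 of 6 beside 22.4% of all genes, and are named after their values were seen. *Uba7*, the activating enzyme of ISG15, was at 2.90, 1.95, 2.32 and 1.77 TPM with NT siRNAs and at 3.23, 2.49, 4.74 and 2.58 TPM with *Uba1* siRNAs. It was higher in the *Uba1* leg of all 4 mice, and its ranges overlapped. *Ube2l6*, the conjugating enzyme, was at 5.11, 6.92, 9.68 and 4.73 TPM with NT siRNAs and at 7.13, 3.56, 8.86 and 3.59 TPM with *Uba1* siRNAs, lower in the *Uba1* leg of 3 of 4 mice (log2FC -0.21, adjusted p = 0.701 from limma).

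The wider list held 107 further interferon-stimulated genes, of which 79 were tested. None passed the adjusted p. At an unadjusted P of 0.05, 7 were higher and 1 was lower, which is 8.86% and 1.27% of the 79 beside 16.0% and 1.98% of all genes. With the legs paired, 24 were higher and 2 lower, which is 30.4% and 2.53% of the 79 beside 22.4% and 2.80% of all genes. With pairing and median-ratio scaling 10 were higher, beside 6.96% of all genes. Those named by the smallest P were *Trim21*, *Trim34a*, *Tnfsf10*, *Parp12* and *Daxx*, with log2FC of 0.48, 0.44, 0.40, 0.37 and 0.18, and *Ifi205*, with -0.71 (adjusted p between 0.196 and 0.243 from limma). Without *Uba1* replicate 3, *Trim34a*, *Tnfsf10*, *Parp12* and *Daxx* did not pass the unadjusted P, at a limma P of 0.0638, 0.0690, 0.0548 and 0.0859. Their log2FC were then 0.30, 0.26, 0.23 and 0.14. *Tnfsf10*, which encodes the death ligand TRAIL, was at 3.03, 1.91, 2.35 and 2.67 TPM with NT siRNAs and at 3.22, 2.76, 5.05 and 3.54 TPM with *Uba1* siRNAs. *Ifi205*, a gene of the family of DNA-binding HIN proteins, was at 4.95, 7.67, 9.58 and 10.2 TPM with NT siRNAs and at 3.96, 2.30, 6.90 and 5.64 TPM with *Uba1* siRNAs. Of the 79, 66 were highest in *Uba1* replicate 3 (83.5%, beside 34.3% of all genes) and 74 were higher in the *Uba1* leg of pair 3 (93.7%, beside 81.8% of all genes). In 4 of 79, *Ifit2*, *Ifit3b*, *Cmpk2* and *Rnf213*, that difference was over 1 on the log2 scale. The median log2FC of the 79 was 0.20, and 0.021 without *Uba1* replicate 3.

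Of the genes and regulators that interferon gamma induces, 20 of 23 were tested. *Irf1*, a transcription factor induced by interferons and by NF-kB, was the one gene of these lists past the adjusted p without the pairing. It was at 12.4, 11.1, 12.0 and 11.4 TPM with NT siRNAs and fell to 5.30, 4.86, 5.94 and 6.22 TPM with *Uba1* siRNAs. The groups did not overlap, as for 1.01% of all genes downward, and the log2FC was -0.95 (adjusted p = 0.00429 from limma). *Uba1* replicate 3, where the 9 genes were highest, was not apart from the other *Uba1* muscles in *Irf1*. *Gbp9*, a guanylate-binding GTPase gene, had a log2FC of 0.25 at an unadjusted P of 0.0454 and a limma adjusted p of 0.267, and its unadjusted P was 0.121 without *Uba1* replicate 3. *Irf1* and *Gbp9* were thus 1 of 20 downward and 1 of 20 upward, beside 1.98% and 16.0% of all genes. With the legs paired, 1 of 20 passed the unadjusted P downward and 4 of 20 upward, beside 2.80% and 22.4% of all genes.

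Markers of other cells moved along with the 9 genes in part. In whole muscle, more cells of a type and more RNA per cell cannot be told apart. The summed level of the 9 genes was 42.9, 35.9, 68.5 and 42.7 TPM in NT replicates 1 to 4 and 59.6, 32.4, 148.7 and 35.5 TPM in *Uba1* replicates 1 to 4. The summed level of 27 leukocyte markers was 191.5, 261.3, 381.7 and 145.1 TPM and then 288.7, 153.8, 434.1 and 163.3 TPM, so that it too was highest in the muscles of pair 3. Of these 27 markers, 18 were highest in *Uba1* replicate 3. Between the legs of pair 3, the sum of the leukocyte markers differed 1.14-fold, or 1.37-fold without *Lyz2*, its most abundant gene, and that of the 9 genes 2.17-fold. Single leukocyte markers differed as much as the 9 genes there. *S100a8* and *S100a9*, both neutrophil genes, were 3.18 and 2.75 times as high in the *Uba1* leg of pair 3, and they were the 2 of 14 tested markers over 1 on the log2 scale, with a median of 0.088 over the 14. None of the 14 passed an unadjusted P of 0.05, and with the legs paired *S100a8* did, at a limma P of 0.0436 and an adjusted p of 0.188. *Lyz2*, the lysozyme gene of macrophages and neutrophils, was at 286.7 and 304.3 TPM in NT and *Uba1* replicates 3 and at 206.5 TPM or less elsewhere. *S100a9* was at 8.87, 30.2, 11.9 and 16.4 TPM with NT siRNAs and at 13.6, 24.9, 32.7 and 18.4 TPM with *Uba1* siRNAs. The lymphocyte markers *Cd3e*, *Cd3d*, *Cd4*, *Cd8a* and *Ms4a1* were at 0.463 TPM or less in every muscle. The part of leukocytes in the levels of the 9 genes was not tested.

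The summed level of 11 fibroblast markers ranged from 561.7 to 1135 TPM with NT siRNAs and from 690.1 to 1397 TPM with *Uba1* siRNAs and was also highest in *Uba1* replicate 3. Of these, 1 passed an unadjusted P of 0.05, *Lum*, the gene of the matrix proteoglycan lumican (log2FC 0.49, adjusted p = 0.187 from limma), and with the legs paired 3 of 11 did, *Lum*, *Col1a1* and *Pdgfra*, all higher, beside 22.4% of all genes. The 12 endothelial markers summed to 194.2 to 276.0 TPM with NT siRNAs and 218.7 to 261.5 TPM with *Uba1* siRNAs, where *Cdh5* (log2FC 0.026) and *Pecam1* (log2FC -0.014) were the most abundant, and 0 of 12 passed. Of the 7 satellite cell and regeneration markers 0 passed, with *Myod1* at a log2FC of 0.34 and *Myog* at -0.39. With the legs paired 1 passed upward, *Myod1* (limma P of 0.0073, adjusted p of 0.111), and 2 downward, *Myh3* and *Mymk*, beside 22.4% and 2.80% of all genes. The sum of the 7 in *Uba1* replicate 3 was 0.808 times that in the contralateral NT muscle. The 16 skeletal muscle markers, led by *Acta1* (log2FC -0.17) and *Mylpf* (log2FC -0.32), summed to 131926 to 141818 TPM with NT siRNAs and 106990 to 144847 TPM with *Uba1* siRNAs, and 0 of 16 passed. The labelled tissue was thus present in its markers in all 8 libraries.

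**Figure D4:**
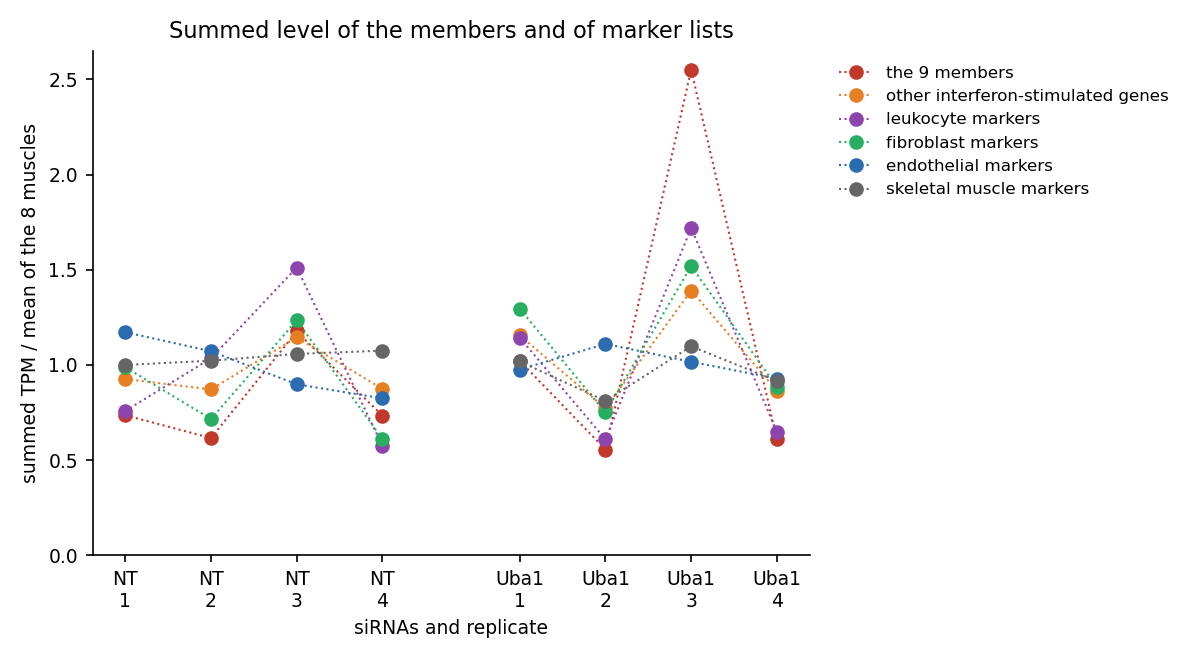
Summed TPM of the 9 genes, of the wider list of interferon-stimulated genes and of 4 lists of cell type markers in each of the 8 muscles, each divided by its own mean over the 8 muscles (axis from 0; dotted lines only join the points of a list). In *Uba1* replicate 3 the 9 genes reach 2.55 times their mean, above the leukocyte and fibroblast markers, which are also highest there.

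Reads of these genes could in places belong to overlapping genes. Antisense non-coding genes overlap *Isg15*, *Usp18* and *Herc6* in the GENCODE annotation, the library kit does not mark strand, and reads from a gene and its antisense partner then cannot be told apart. *Gm44148*, which overlaps *Usp18*, was listed at 0.405 TPM or less, and *Gm45193*, which overlaps *Herc6* on the same strand, was listed at 0. The antisense genes of *Isg15* (*Gm46878*) and *Herc6* (*Gm66279*) are not among the genes listed, so their levels are unknown. They share stretches of 252 and 248 bases with *Isg15* and *Herc6*. No other protein-coding gene had an alignment of 100 bases or more at 98% identity over its whole length with transcripts of the 9 genes. Longer alignments below 98% were not kept, though they could hold such a stretch. Reads shared with related genes were thus not excluded.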

How the data were processed

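Reads of 8 muscles (TruSeq RNA Sample Prep v2, paired-end) were trimmed and aligned to GRCm39 by the authors with CLC Genomics Workbench, and the deposited values are TPM per gene, not counts. The annotation, the handling of reads that match several genes and the use of strand are not given in the sources used here. Each library adds up to 1000000 TPM, so the depth is unknown, no counting interval is given, and 4 muscles per group limit the precision. Protein and *Drosophila* data of the study were not used.

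Genes that reached 1 TPM in 4 muscles or more were tested on log2(TPM + 1) with limma 3.58.1 in R 4.3.3 (lmFit, eBayes with a trend, no covariates), with Benjamini-Hochberg adjustment over all 11530 genes. The added 1 TPM pulls differences between low values toward 0. Single genes were compared with exact permutation tests (scipy 1.17.1, two-sided), which do not use the pairing of legs. Equal numbers in the titles mark contralateral legs of 1 mouse, so the samples are paired. The deviations of same-numbered muscles from their group means correlated at -0.00037, 0.20, 0.58 and 0.54 in pairs 1 to 4. The study's test was a Kruskal-Wallis test, used here as an alternative. Other alternatives were a pseudocount of 0.1, no filter, a mean of 5 TPM or more, quantile normalization, median-ratio scaling, removal of mitochondrial genes before rescaling TPM, the replicate block alone and with median-ratio scaling, and leaving out each muscle. Leaving out both muscles of replicate 3, with and without the block, was chosen after seeing the data. The 9 genes and all lists were chosen with earlier results of these data known. Named were the 9 genes and *Uba1*, per list the genes past the adjusted p and up to 6 with the smallest unadjusted P under 0.05, otherwise the 2 with the highest mean TPM, and the 10 genes most like the 9. Values of other genes were chosen after they were seen. Promoters and positions come from GRCm39 with GENCODE M39, and shared sequence was searched with blastn 2.17.0.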

Additional observations from a re-analysis of the deposited data

Results flagged for a closer look

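In groups of 4 muscles, a muscle was marked when its gap to the nearest of the others exceeded Dixon's 95% critical share of the range of the group. Chance marks about 1 in 20 groups of normally distributed values, which TPM need not be. Here 9 of 89 were marked, 2 of them for *Ifnz*, where 3 muscles were at 0 and any value above 0 is marked. Of the 18 groups of the 9 genes, 5 were marked, each for a high level in *Uba1* replicate 3. These were *Ifit3* at 39.9 TPM, *Rsad2* at 12.7 TPM, *Ifit1* at 9.57 TPM, *Usp18* at 5.23 TPM and *Herc6* at 1.44 TPM. They come from 1 library and are not independent of each other. The share of all genes marked by this rule was not determined, and 34.3% of all genes tested were highest in *Uba1* replicate 3. The 9 genes were also chosen with earlier results known, so the 5 of 18 cannot be judged against chance. Outside the 9 genes, *Socs3* stood apart at 20.1 TPM in *Uba1* replicate 4. *Trim21* was low in NT replicate 4, at 0.464 TPM. *Ifnz* was listed at 0.0457 TPM in NT replicate 3 and 0.0473 TPM in *Uba1* replicate 3, each beside 3 muscles at 0. The causes were not tested.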

How the results depend on the processing

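No alternative brought any of the 8 tested genes past an adjusted p of 0.05 in limma. At an unadjusted P of 0.05 the main test gave 0 of 8 higher, the replicate block 3 (beside 22.4% of all genes), the replicate block with median-ratio scaling 2 (6.96%) and the replicate block without both muscles of replicate 3 2 (10.2%). With 1 muscle left out, the median log2FC of the 8 ranged from -0.086 to 0.48. Of the wider list, 7 were higher and 1 lower in the main test. The count of higher genes was 19 with TPM rescaled without mitochondrial genes, 2 with median-ratio scaling and with quantile normalization, 3 when a mean of 5 TPM was required, 24 with the replicate block, 10 with the replicate block and median-ratio scaling, 9 with the replicate block without both muscles of replicate 3, 4 without both muscles of replicate 3 and 1 to 18 with 1 muscle left out, where 1 was the count without NT replicate 2 and also without *Uba1* replicate 3, and 18 that without *Uba1* replicate 2. The count of lower genes was 0 with the Kruskal-Wallis test, 2 with the replicate block and with it plus median-ratio scaling, 3 without both muscles of replicate 3 under either fit and 0 to 3 with 1 muscle left out. For most of these settings the share of all genes passing is not given, so the counts cannot be read as particular to the list. The scaling shifted all genes, of which 81.8% had a log2FC above 0 in the main fit and 50.7% with median-ratio scaling. The log2FC of *Bst2* turned to -0.11 with median-ratio scaling with or without the replicate block, to -0.068 with quantile normalization and to -0.079 without both muscles of replicate 3. The latter also turned *Isg15* to -0.27 and *Ifit1* to -0.068. With 1 muscle left out, the log2FC ranged from -0.26 to 0.20 for *Bst2*, from -0.39 to 0.46 for *Isg15*, from -0.25 to 0.51 for *Ifit1*, from -0.0087 to 0.45 for *Stat2* and from -0.16 to 0.47 for *Rsad2*. For *Isg15*, *Ifit1*, *Stat2* and *Rsad2* the muscle whose absence turned the sign was *Uba1* replicate 3. *Ifit3* stayed above 0 in all 19 alternatives, and *Usp18* and *Oasl2* in the 18 in which they were tested, being below the stricter filter. The Kruskal-Wallis test and the replicate block keep the log2FC of the same values fitted without them. These settings could therefore not change the sign. Causes of these shifts were not tested.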
